A study of Homo sapiens with 36 samples.

Results

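EHF and 9 other genes of the ETS transcription factor family were followed through all 36 RNA-seq libraries of a knockdown study in breast cells, whose targets were the coactivators YAP and TAZ, their TEAD partners, STAT3 and JUNB. The 10 members were EHF, ELF3, ELF5 and SPDEF, the epithelial ETS factors, and ETS1, ETS2, ETV1, ETV4, ETV5 and ELK3, out of 60725 genes measured. The members were taken by name from the family, with earlier results of these data known. EHF alone was picked on its measured values, its rise in all 4 knockdowns of tamoxifen-treated cells in earlier work on these data. Its values in any comparison with tamoxifen-treated libraries are therefore given as a description with no test, and it is tested only in vehicle-treated cells and in MDA-MB-231, whose libraries did not enter that choice.

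MCF-10A ER-Src, here ER-Src, is a single line of non-transformed human breast epithelium that carries v-Src joined to an estrogen receptor ligand-binding domain. Tamoxifen (TAM) turns this oncoprotein on, and ethanol (ETH) is the vehicle. The study's methods name the Src inhibitor AZD0530 together with tamoxifen. They give more than 1 duration of treatment for siRNA-treated cells without saying which one the RNA libraries had. All ER-Src cells carried the fusion and all received a pool of siRNAs, against a control sequence (Ctrli), YAP (YAPi), TAZ (TAZi), STAT3 (STAT3i) or JUNB (JUNBi), each under ETH and under TAM. MDA-MB-231, an established triple-negative breast cancer line without the fusion, was used in 2 sets with separate controls. Set 1 held Ctrli, YAPi, TAZi, both together (YAPi_TAZi) and a knockdown of the TEAD factors (TEADi), whereas set 2 was made of Ctrli, STAT3i and JUNBi. Each of the 18 groups had 2 libraries, and nothing says that they came from separate cultures, so p-values measure the spread between these libraries, which may be technical.

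ETS factors share a DNA-binding domain that recognizes a GGAA core. EHF, ELF3 and ELF5 form the epithelium-specific branch of the family, and SPDEF is a factor of glandular and secretory epithelium. ETV1, ETV4 and ETV5 form the PEA3 branch, whose genes are induced by the ERK pathway, and ETS1 and ETS2 are activated by ERK phosphorylation and are known for switching on proteases and other genes of invasion. ELK3 is a ternary complex factor that joins serum response factor on early response genes and can repress them until it is phosphorylated.

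The values are RSEM expected counts, which are read numbers estimated per gene, and TPM, in which each estimate is divided by the effective gene length and scaled to a fixed library total. Normalized counts are expected counts divided by a DESeq2 size factor. A gene was called when the Benjamini-Hochberg adjusted p of DESeq2 over all genes tested was under 0.01. Library depth ran from 6419720 to 19161700 counts in ER-Src, 1411304 to 2784605 in the 8 knockdown libraries of set 1, 13456784 and 13534560 in the set 1 controls and 7290499 to 18076158 in set 2. RNAs without a poly(A) tail took 8.71% to 11.8% of counts in the set 1 knockdowns and at most 0.0041% in the set 1 controls, so in set 1 the knockdown and the kind of library cannot be told apart. The set 1 knockdowns also differed among themselves. Replicate 1 of each had a gap between gene length and effective length of 48.0 bases and 8.71% to 9.77% of such RNAs, and replicate 2 had 74.6 bases and 11% to 11.8%. In ER-Src the gap between gene length and effective length was 49.0 bases in STAT3i and JUNBi and 49.5 bases in the other groups, and that difference cannot be told apart from those knockdowns. YAP1, WWTR1 (which encodes TAZ), STAT3 and JUNB passed the threshold, lower, in their own knockdowns, and the TEAD genes were not checked in TEADi. The exceptions were that JUNB under ETH missed it at an adjusted p of 0.0637 and STAT3 in set 2 had no adjusted p (log2 fold change -2.41). Basal keratin KRT5 stood at 1012 to 2622 TPM in ER-Src and at 0 in both MDA-MB-231 controls of set 1, and at 0 to 11.5 TPM in the set 1 knockdowns. E-cadherin (CDH1) stood at 6.31 to 20.5 TPM in ER-Src and 0.16 to 0.19 TPM in those controls. PTPRC, a leukocyte marker, reached at most 0.08 TPM in any ER-Src library, while the macrophage marker CD68 ran from 1.86 to 18.1 TPM there and was called in several of the comparisons below, and its part in them was not tested.

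The upstream sequences of EHF, ELF3 and ETS2, the members with the largest changes in ER-Src, are shown first. RefSeq promoter entries (GRCh38.p14) were matched for 7 of the 10 members, with none for ETS1, ETV4 and ETV5. Each sequence is the 250 bases before an annotated start, 5′ to 3′ on the gene's strand, and capitals mark the ETS core GGAA or its complement TTCC. EHF has entries for 2 starts, at chr11:34624007-34624256 and chr11:34632316-34632565 (plus strand), ELF3 has 1 at chr1:202010337-202010586 (plus strand), and of 2 for ETS2 the one at chr21:38804933-38805182 (plus strand) is shown.
EHF, first start: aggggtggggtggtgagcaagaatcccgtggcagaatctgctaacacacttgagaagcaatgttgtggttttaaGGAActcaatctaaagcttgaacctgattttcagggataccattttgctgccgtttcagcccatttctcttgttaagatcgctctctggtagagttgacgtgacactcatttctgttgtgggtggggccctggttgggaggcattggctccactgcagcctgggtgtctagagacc
EHF, second start: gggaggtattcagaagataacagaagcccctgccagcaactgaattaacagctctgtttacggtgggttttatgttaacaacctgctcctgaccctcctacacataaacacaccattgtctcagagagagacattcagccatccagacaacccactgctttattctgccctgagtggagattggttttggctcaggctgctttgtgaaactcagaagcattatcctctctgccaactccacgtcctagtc
ELF3: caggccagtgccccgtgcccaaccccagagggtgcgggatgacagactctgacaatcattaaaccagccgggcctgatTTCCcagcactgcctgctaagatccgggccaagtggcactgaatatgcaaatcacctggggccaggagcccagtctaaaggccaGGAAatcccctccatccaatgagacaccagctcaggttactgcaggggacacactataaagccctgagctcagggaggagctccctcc
ETS2: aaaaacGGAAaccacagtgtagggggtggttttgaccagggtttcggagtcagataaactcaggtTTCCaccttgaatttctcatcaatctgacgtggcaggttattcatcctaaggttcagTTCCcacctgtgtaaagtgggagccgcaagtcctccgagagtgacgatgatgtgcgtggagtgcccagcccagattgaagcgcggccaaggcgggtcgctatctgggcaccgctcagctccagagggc

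The first EHF sequence held 1 ETS core, the second held 0, ELF3 held 2 and ETS2 held 3. On either strand, GGAA was found in 92.8% of the same windows of 27305 promoters, so its presence sets no promoter apart. The AP-1 motif TGANTCA (in 6.6% of all windows), the TEAD motif GGAATG (11.9%), which holds the ETS core within it, and the STAT motif TTCNNNGAA (6.8%) were found in 0 of the windows of the 7 matched members. The longer ETS motif CCGGAA (14.8%) was found among them in windows of ETV1 alone. These counts describe the letters of 250 bases and no binding. In GENCODE version 44 on GRCh38 the genes the results turn on lie at chr11:34621093-34663288 (EHF, plus strand), chr1:202007945-202017183 (ELF3, plus strand), chr21:38805183-38824955 (ETS2, plus strand), chr6:34537802-34556333 (SPDEF, minus strand) and chr7:13891229-13991425 (ETV1, minus strand).

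In vehicle-treated control cells ETS2 had the highest TPM of the 10 members, and the epithelial members were at the low end. In Ctrli under ETH, TPM (mean ± SD, n = 2) was 12.5 ± 1 for ETS2, 8.65 ± 2.2 for ETV5, 7.49 ± 1 for ETV1, 6.41 ± 0.44 for ELK3, 5.57 ± 1.1 for ETV4, 4.13 ± 1 for ETS1, 2.73 ± 0.15 for EHF and 0.295 ± 0.22 for ELF3. The neighbours ETV5 and ETV1, ELK3 and ETV4, and ETV4 and ETS1 overlapped between libraries in that order. ELF5, the regulator of milk-producing alveolar cells, had 1 count in 1 TAZi TAM library and 1 in 1 STAT3i TAM library and 0 in the other 34 libraries, and a count of 0 allows up to 3 counts. It lies next to EHF on chromosome 11, 95899 bases away with 0 protein-coding genes between them. SPDEF had 1 count in each of 3 ER-Src libraries and 0 in the other 17, so neither gene was measurable in ER-Src and 8 members were compared there.

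**Figure D1:**
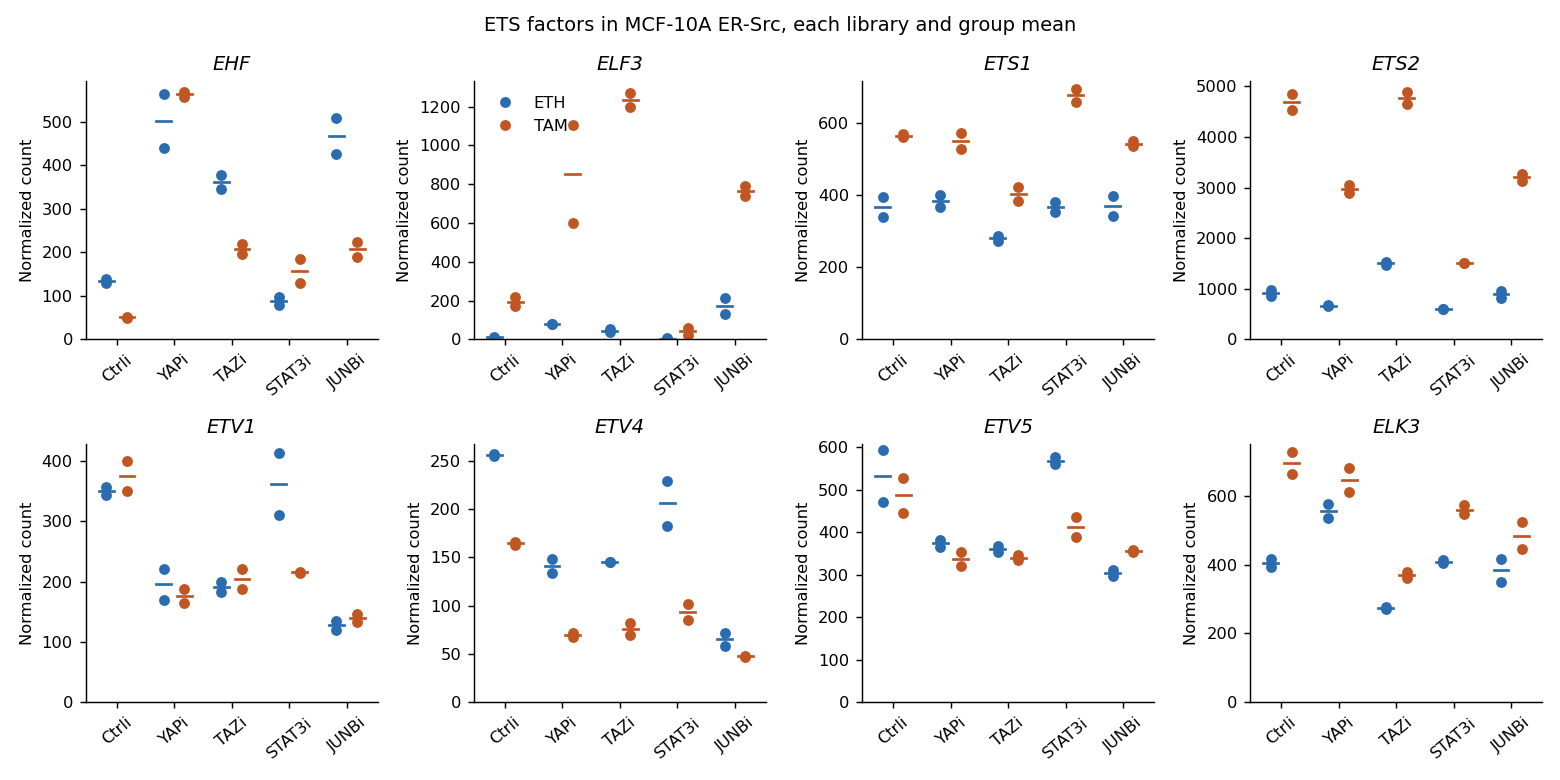
Normalized counts (linear axes from 0) of the 8 members measured in ER-Src, by siRNA, with ETH in blue and TAM in orange. Points are single libraries and bars are means of 2. EHF is lowest in Ctrli TAM, ELF3 and ETS2 are high under TAM, and ETV1 and ETV4 are low in YAPi, TAZi and JUNBi.

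In cells without active Src, knockdown of YAP, TAZ or JUNB was followed by higher EHF and lower ETV1, and with STAT3i DESeq2 called no member in the separate fit. EHF stood at 138 and 130.3 normalized counts in the Ctrli ETH libraries, 565 and 439 in YAPi and 345 and 379 in TAZi, then 98.2 and 79.1 in STAT3i and 509 and 426 in JUNBi. The YAPi, TAZi and JUNBi libraries all lay above the controls and the STAT3i libraries below them. EHF rose in YAPi (log2 fold change 1.90, SE 0.23, adjusted p 3.86e-14), in TAZi (log2 fold change 1.42, SE 0.25, adjusted p 1.32e-06) and in JUNBi (log2 fold change 1.78, SE 0.31, adjusted p 1.75e-06). In STAT3i the change of -0.59 (SE 0.37) was not called. The 4 comparisons share the same Ctrli libraries. In bulk RNA a change in the number of expressing cells and in the RNA per cell cannot be told apart. Of 4 basal markers (KRT5, KRT14, KRT17 and TP63), 3 were called in YAPi (2 higher and 1 lower), 3 in TAZi (all higher), 0 in STAT3i and 2 in JUNBi (1 higher and 1 lower). Of 4 luminal markers (KRT8, KRT18, KRT19 and EPCAM), of which 3 or 4 had an adjusted p, KRT18 and EPCAM were lower in YAPi, KRT18 was lower in TAZi and KRT8 was higher in JUNBi. The part of these markers in the results was not tested.

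ELF3, an epithelial factor that inflammatory signals induce, was near the limit of measurement in these cells. It stood at 10.2 and 13.8 normalized counts in Ctrli, 82.1 and 80.4 in YAPi and 38.6 and 53.3 in TAZi, then 5.93 and 3.08 in STAT3i and 129 and 213 in JUNBi. The YAPi, TAZi and JUNBi libraries again lay above both controls. It rose in YAPi (log2 fold change 2.76, SE 0.56, adjusted p 2.36e-05) and JUNBi (log2 fold change 3.82, SE 0.56, adjusted p 1.96e-09), and TAZi did not pass the threshold (log2 fold change 1.93, SE 0.72, adjusted p 0.0675). ELF3 is overlapped by an antisense gene and by a second gene on its own strand, and strand use in counting is not stated, so reads of these genes cannot be told apart from its own.

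Of the PEA3 branch, ETV1 and ETV4 fell. ETV1 stood at 344 and 356 normalized counts in Ctrli, 221 and 170.1 in YAPi and 199 and 183 in TAZi, then 414 and 311 in STAT3i and 135 and 121 in JUNBi, with no overlap between Ctrli and YAPi, TAZi or JUNBi. It fell in YAPi (log2 fold change -0.84, SE 0.24, adjusted p 0.00399), TAZi (log2 fold change -0.88, SE 0.24, adjusted p 0.00545) and JUNBi (log2 fold change -1.47, SE 0.32, adjusted p 0.000414). ETV4, which is overlapped by DHX8 on the opposite strand, stood at 255 and 257 in Ctrli and 58.3 and 71.9 in JUNBi and fell in JUNBi (log2 fold change -1.99, SE 0.37, adjusted p 1.34e-05) and in YAPi (log2 fold change -0.87, SE 0.26, adjusted p 0.00697). It was at 148 and 134 in YAPi. In TAZi (145 and 145) and STAT3i (183 and 229) it also lay below both controls, without a call in the separate fits. ETV5 was not called, with log2 fold changes of -0.52 in YAPi and -0.57 in TAZi, then 0.10 in STAT3i and -0.83 in JUNBi. ETS2 rose in TAZi alone among the 4 comparisons, from 863 and 972 to 1479 and 1533 normalized counts (log2 fold change 0.71, SE 0.14, adjusted p 2.26e-05). ETS1 and ELK3 were called in none of the 4 separate fits.

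Members called numbered 4 of 8 measured in YAPi, where 11.6% of all genes tested were called, 3 in TAZi (5.24%), 0 for STAT3i (0.189%) and 4 for JUNBi (2.8%). With all ER-Src groups in 1 fit of 20 libraries the counts were 7, 7, 1 and 5 of the 8. The shares above belong to the separate fits, so these counts have no share of all genes beside them. The median log2 fold change of the measured members was -0.20, -0.48, -0.15 and -0.07 in that order, and that of all genes tested lay between -0.01 and 0.02. In STAT3i, 1 of the 8 had an unadjusted p under 0.05 with DESeq2, edgeR called 0, and 37 genes in all were called by DESeq2. The 2 libraries of a group differed more in STAT3i and JUNBi than in the other ETH groups. The squared deviation of counts from the depth share, over the counting variance, had medians over genes of 3.9 and 8.8 there. It was 1.3 in Ctrli, 1.84 in YAPi and 1.58 in TAZi, so the 4 fits did not have an equal spread to test against. Leaving out any 1 of the 4 libraries kept the EHF call in YAPi and the ELF3 call in JUNBi, and ended those of ETV1 and ETV4 in YAPi and of ETS2 and ETV1 in TAZi each time (adjusted p up to 0.521). The EHF call in JUNBi was lost without either Ctrli library (adjusted p up to 0.0672) and that in TAZi without either Ctrli library or TAZi replicate 2 (up to 0.0252). The calls of ETV1 and ETV4 in JUNBi were also lost without either Ctrli library (up to 0.497), and that of ELF3 in YAPi without Ctrli replicate 1 or either YAPi library (up to 0.0382). With edgeR none of the 4 members in JUNBi was called (adjusted p 0.0306 to 0.0476).

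**Figure D2:**
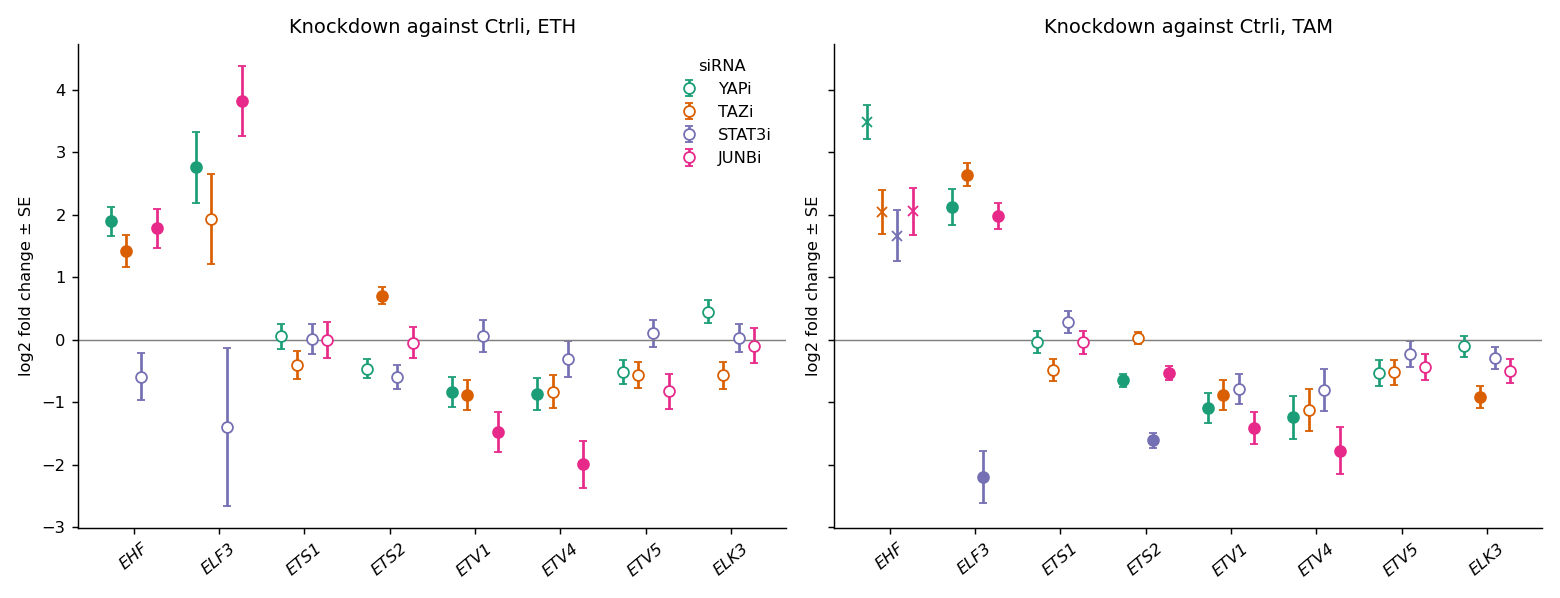
Log2 fold change ± SE of each member against Ctrli for the 4 knockdowns under ETH (left) and TAM (right). Filled circles were called, open circles were not, and crosses are EHF under TAM, which was picked on these values and not tested. EHF lies above 0 in 7 of the 8 comparisons, ELF3 lies above 0 except in STAT3i, and ETV4 lies below 0 in all 8.

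Under TAM, EHF was at its lowest in the control cells, and this is the comparison on which it was picked. The 2 Ctrli TAM libraries held 50.1 and 51.2 normalized counts, the YAPi libraries 568 and 558, TAZi 197 and 220.1, STAT3i 186 and 129.9 and JUNBi 224 and 190.2. The log2 fold changes were 3.49 (SE 0.28) in YAPi and 2.04 (SE 0.35) in TAZi, then 1.67 (SE 0.40) in STAT3i and 2.06 (SE 0.37) in JUNBi. All 8 knockdown libraries lay above both controls, as the choice of EHF requires.

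ELF3 went in opposite directions under TAM. It stood at 218 and 172 normalized counts in Ctrli, 1105 and 602 in YAPi, 1197 and 1268 in TAZi, 738 and 792 in JUNBi and 58.2 and 25.4 in STAT3i. No library of a knockdown overlapped the controls. ELF3 rose in YAPi (log2 fold change 2.13, SE 0.28, adjusted p 7.16e-12), TAZi (log2 fold change 2.64, SE 0.18, adjusted p 4.12e-44) and JUNBi (log2 fold change 1.98, SE 0.21, adjusted p 1.24e-17) and fell in STAT3i (log2 fold change -2.19, SE 0.42, adjusted p 6.11e-06). The calls in TAZi and JUNBi held with each library left out. That in YAPi was lost without either Ctrli library (adjusted p up to 0.0965) and that in STAT3i without Ctrli replicate 1 or STAT3i replicate 2 (up to 0.0633).

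ETS2 had the highest TPM of the members in Ctrli under TAM, 51.6 ± 1.3 (mean ± SD, n = 2). In normalized counts it was at 4529 and 4850.4 in Ctrli, 3053 and 2892 in YAPi and 4887 and 4648 in TAZi, then 1513 and 1516 in STAT3i and 3132 and 3275 in JUNBi. The TAZi libraries overlapped the controls and the others lay below them, STAT3i furthest. ETS2 fell in STAT3i (log2 fold change -1.61, SE 0.12, adjusted p 2.66e-39), YAPi (log2 fold change -0.65, SE 0.11, adjusted p 1.08e-07) and JUNBi (log2 fold change -0.53, SE 0.11, adjusted p 0.000132). The call in STAT3i held without each library in turn, that in YAPi was lost without Ctrli replicate 2 (adjusted p 0.0174), and that in JUNBi was lost without either Ctrli library or JUNBi replicate 1 (up to 0.165). In TAZi its change was 0.03 (SE 0.09). A gene antisense to ETS2 overlaps it.

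ETV1 and ETV4 were lower here too. ETV1 fell from 400.0 and 350.0 normalized counts in Ctrli to 188 and 164 in YAPi (log2 fold change -1.09, SE 0.24, adjusted p 0.000138), 220.4 and 188 in TAZi (log2 fold change -0.88, SE 0.24, adjusted p 0.00583) and 133 and 146 in JUNBi (log2 fold change -1.41, SE 0.26, adjusted p 2.54e-06). In STAT3i it stood at 214 and 217 and missed the threshold (log2 fold change -0.78, SE 0.24, adjusted p 0.0104). ETV4 fell from 163 and 166 to 71.1 and 67.2 in YAPi (log2 fold change -1.24, SE 0.34, adjusted p 0.00363) and 46.8 and 48 in JUNBi (log2 fold change -1.77, SE 0.38, adjusted p 0.00012), and was at 81.7 and 69.7 in TAZi (log2 fold change -1.12, SE 0.34, adjusted p 0.024). In STAT3i ETV4 was at 84.7 and 102 and was not called in the separate fit. The ETV4 calls, and those of ETV1 in YAPi and TAZi, were lost whichever of the 4 libraries was left out (up to 0.875), and that of ETV1 in JUNBi was lost without Ctrli replicate 1 or JUNBi replicate 1 (adjusted p up to 0.0567). ELK3 was called in TAZi, from 728 and 663 to 377 and 361 normalized counts (log2 fold change -0.92, SE 0.18, adjusted p 1.98e-05), and without Ctrli replicate 1 or either TAZi library that call was lost (up to 0.14). ETV5 and ETS1 were called in none of the 4.

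Leaving EHF aside, members called numbered 4 of 7 measured in YAPi (10.7% of all genes tested), 3 in TAZi (3.42%), 2 for STAT3i (8.22%) and 4 for JUNBi (6.9%). With all ER-Src groups in 1 fit the counts were 5, 4, 4 and 5, without the share of all genes called in that fit. In the separate fits the median log2 fold change of these members was -0.52, -0.52, -0.78 and -0.50, against medians of at most 0.03 in size for all genes tested. All 4 comparisons share the Ctrli TAM libraries, so they are not independent of each other. Of the basal markers, 2 were called in YAPi (1 higher and 1 lower), 1 in TAZi (higher), 2 in STAT3i and 2 in JUNBi (all lower). Of the luminal markers, 2 were lower in YAPi and 1 was higher in JUNBi, and the part of these markers was not tested. Under TAM, STAT3i also lowered JUNB itself (log2 fold change -2.41, SE 0.16, adjusted p 2.50e-47).

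Under TAM against ETH, ETS2 and ELF3 were higher, and no gene of the PEA3 branch was called in the separate fits. TAM, AZD0530 and active Src cannot be told apart here, since no group without the fusion received TAM. In Ctrli, ETS2 rose from 863 and 972 to 4529 and 4850.4 normalized counts (log2 fold change 2.37, SE 0.11, adjusted p 5.00e-92) and ELF3 from 10.2 and 13.8 to 218 and 172 (log2 fold change 4.05, SE 0.48, adjusted p 5.22e-15). Neither overlapped between treatments, and both calls held with each library left out. ELK3 rose from 415 and 393 to 728 and 663 (log2 fold change 0.80, SE 0.18, adjusted p 0.000276), a call that was lost in each of the 4 fits with 1 library fewer (adjusted p 0.0264 to 0.223). ETS1 did not pass (log2 fold change 0.63, SE 0.20, adjusted p 0.0181). ETV1, ETV4 and ETV5 changed by 0.12 (SE 0.22), -0.63 (SE 0.27) and -0.11 (SE 0.21), none of them called. ETV4 was lower under TAM in every siRNA background without overlap between libraries, though called in none of the separate fits. Its normalized counts went from 255 and 257 to 163 and 166 in Ctrli and from 148 and 134 to 71.1 and 67.2 in YAPi. In TAZi they went from 145 and 145 to 81.7 and 69.7. In STAT3i and JUNBi they went from 183 and 229 to 84.7 and 102, and from 58.3 and 71.9 to 46.8 and 48. EHF moved the other way, by -1.40 (SE 0.41), given as a description since its TAM control values took part in its choice.

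The response of ETS2 was seen in every siRNA background, in libraries that the 5 comparisons do not share. It rose by 2.15 (SE 0.13) in YAPi and 1.66 (SE 0.11) in TAZi, then 1.33 (SE 0.19) in STAT3i and 1.85 (SE 0.24) in JUNBi (highest adjusted p 1.96e-09). The call in STAT3i was lost without STAT3i TAM replicate 1 (adjusted p 0.0247), and with edgeR the calls in STAT3i and JUNBi were lost (0.0316 and 0.0171). ELF3 rose by 3.39 (SE 0.27) in YAPi, 4.76 (SE 0.24) in TAZi and 2.17 (SE 0.32) in JUNBi, where edgeR gave an adjusted p of 0.033. In STAT3i the change of ELF3 was 3.20 (SE 0.88), from 5.93 and 3.08 to 58.2 and 25.4 normalized counts, and missed the threshold (adjusted p 0.0286). ETS1 was called in STAT3i alone, from 353 and 382 to 696 and 659 (log2 fold change 0.88, SE 0.22, adjusted p 0.00862), and lost that call whichever library was left out (adjusted p 0.0175 to 1).

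EHF, again as a description, changed by 0.16 (SE 0.19) in YAPi and -0.80 (SE 0.23) in TAZi, then 0.83 (SE 0.37) in STAT3i and -1.17 (SE 0.30) in JUNBi. Members called, without EHF, were 3 of 7 in Ctrli (6.21% of all genes tested), 2 in YAPi (4.5%), 2 in TAZi (7.13%), 2 for STAT3i (0.793%) and 2 for JUNBi (2.13%), and all of these were higher under TAM. With all ER-Src groups in 1 fit the counts were 4, 4, 4, 5 and 3, without the share of all genes called in that fit. The members' median was 0.63, 0.21, 0.43, 0.45 and 0.35 in that order, and medians of all genes lay between -0.02 and -0.01.

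**Figure D3:**
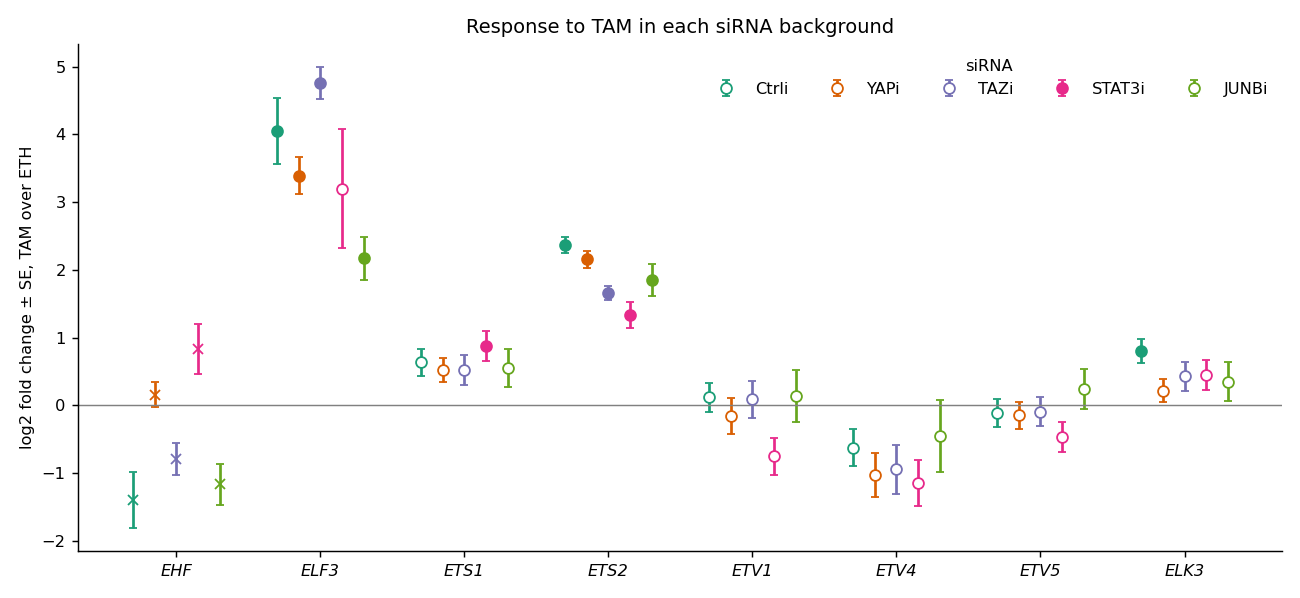
Log2 fold change ± SE of each member, TAM over ETH, within each of the 5 siRNA backgrounds. Filled circles were called, open circles were not, and crosses mark EHF, which was not tested. ETS2 is filled in all 5 backgrounds, ELF3 in 4, and the 3 ETV genes in none.

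The interaction term asks whether a knockdown acted differently under TAM and ETH. ETS2 was the member called, with TAZi (log2 fold change -0.70, SE 0.14, adjusted p 0.000149) and with STAT3i (log2 fold change -1.03, SE 0.20, adjusted p 2.52e-05). With TAZi the change of ETS2 was 0.71 under ETH and 0.03 under TAM, and with STAT3i it was -0.60 and -1.61. The first term was lost without Ctrli ETH replicate 1 (adjusted p 0.0175) and with effective length offsets (0.0135), and edgeR called neither (0.0607 and 0.0164). For ELF3 the terms were -0.65 (SE 0.50) with YAPi, 0.70 (SE 0.46) with TAZi (no adjusted p), -0.85 (SE 0.87) with STAT3i and -1.87 (SE 0.52) with JUNBi (adjusted p 0.0589 for the last). EHF gave 1.57 (SE 0.35) with YAPi, 0.60 (SE 0.40) with TAZi, 2.23 (SE 0.51) with STAT3i and 0.24 (SE 0.42) with JUNBi, with no test for the reason above. Called members numbered 0 of 7 with YAPi (0.498% of all genes tested), 1 with TAZi (1.6%), 1 with STAT3i (1.34%) and 0 with JUNBi (0.288%). With DESeq2, 1 members with YAPi and 2 with JUNBi had an unadjusted p under 0.05, and edgeR called 0 and 0. With TAZi, independent filtering left 4424 genes with an adjusted p, and ETS2 was the 1 member among them.

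The ETS genes that rose and fell together in ER-Src were described over its 20 libraries. The 5 genes whose log2 normalized counts tracked EHF most closely among 10000 genes were CDH1, which encodes E-cadherin (Pearson r = 0.917), SRD5A1, a steroid reductase (0.897), ZNF468 (0.895), ZNF623 (0.892) and RAET1G, an immune receptor ligand (0.892). For CDH1 r was 0.942 within the 10 ETH and 0.916 within the 10 TAM libraries. These are descriptions over libraries that share siRNA groups and their controls. CDH1 stood at 697 and 684 normalized counts in Ctrli ETH and 1267 and 1501 in YAPi ETH, and it rose under ETH in YAPi (log2 fold change 0.99, SE 0.15, adjusted p 1.08e-09), TAZi (log2 fold change 0.71, SE 0.15, adjusted p 0.00014) and JUNBi (log2 fold change 1.05, SE 0.24, adjusted p 0.000581). It was chosen for its likeness to EHF, so those changes are not separate evidence. Among the members, r was 0.889 for ETV1 with ETV5, 0.829 for ETV1 with ETV4, 0.804 for ETS1 with ELK3 and 0.782 for ELF3 with ETS2. EHF went with ETV1 at -0.769 and with ETV5 at -0.771, and with ELF3 at 0.356.

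**Figure D4:**
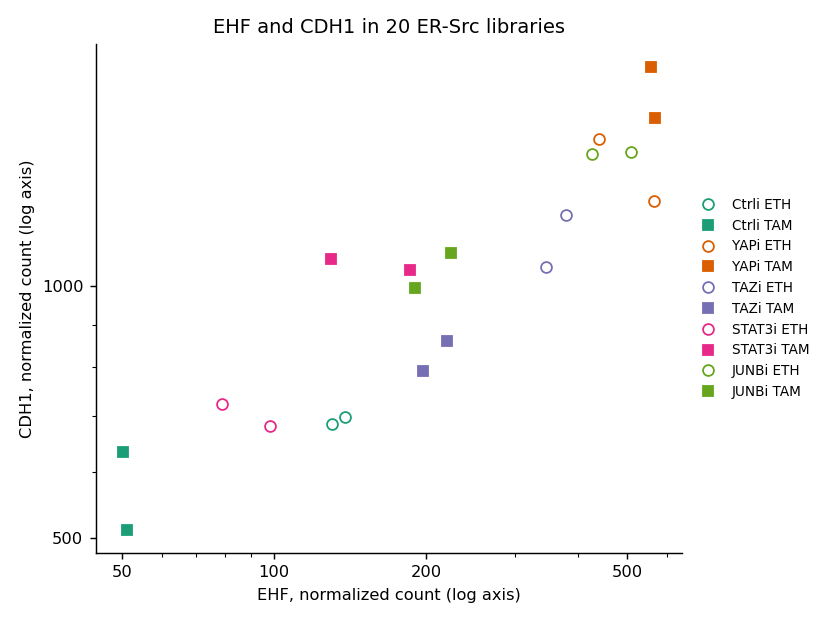
Normalized counts of EHF (x, log axis) and CDH1 (y, log axis) in the 20 ER-Src libraries, colored by siRNA, open circles for ETH and filled squares for TAM. The Ctrli TAM libraries lie at the lower left, near 50 counts of EHF, and the YAPi libraries at the upper right.

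The MDA-MB-231 controls expressed SPDEF beside the 8 members measured in ER-Src, and no test between the lines was run. In the set 1 controls, TPM was 59.4 ± 2.6 for EHF, 59.3 ± 2.2 for ETV4, 57.3 ± 0.54 for ELK3, 55.9 ± 0.62 for ETS1, 40.7 ± 2.2 for ETV5, 40.6 ± 0.95 for SPDEF, 33.1 ± 4.6 for ETV1, 18.3 ± 0.23 for ETS2 and 8.32 ± 2 for ELF3. The neighbours EHF and ETV4, and ETV5 and SPDEF, overlapped between libraries. In the set 2 controls the order was led by ETV4 (50 ± 9.6) and SPDEF (34.1 ± 2.6), while EHF was at 3.58 ± 1.8, ELK3 at 6.06 ± 1.6, ETV1 at 2.94 ± 0.16 and ELF3 at 0.345 ± 0.33 TPM. The 2 sets of controls carry the same siRNA label, and what set their EHF, ELK3 and ETV1 apart was not tested.

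Of the members called in the set 1 knockdowns, SPDEF fell furthest. It had 684 and 675 counts in the controls, 4 and 6 in YAPi, 7 and 10 in TAZi, 8 and 8 in YAPi_TAZi and 4 and 3 in TEADi, in knockdown libraries of lower depth. Per library TPM was 0.46 to 1.58 in the knockdowns. The log2 fold changes were -4.27 (SE 0.54) in YAPi, -3.61 (SE 0.38) in TAZi, -3.31 (SE 0.38) in YAPi_TAZi and -4.61 (SE 0.62) in TEADi (highest adjusted p 1.61e-12). These calls held with each library left out and with the controls of both sets. Since all 8 knockdown libraries were of the other kind, this fall cannot be told apart from the kind of library. Some markers differed as well, and 24.4% to 35.6% of all genes tested were called in these fits. In the knockdowns KRT5 was at 0 to 11.5 and KRT17 at 0 to 6.25 TPM, against 0 and 0.32 to 0.71 TPM in the controls. KRT14 had a median of 0.155 TPM in the knockdowns and 0.205 in the controls, and TP63 of 0 and 0.245. KRT17, higher in YAPi_TAZi and TEADi, was the only basal marker called, and YAPi and TAZi had none. The median log2 fold change of the basal markers tested was 3.09 to 4.58, over at most 4 genes of low TPM. The luminal keratins KRT8, KRT18 and KRT19 were called lower in all 4. The part of these markers in the set 1 results was not tested. Against each other the 4 knockdowns showed no difference in SPDEF that could be called, at -0.56, 0.37, 0.79 and -0.92 (no adjusted p at 3 to 10 counts).

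ELK3 fell in all 4 set 1 comparisons as well, with log2 fold changes of -1.26 (SE 0.18) in YAPi, -2.39 (SE 0.20) in TAZi, -2.54 (SE 0.18) in YAPi_TAZi and -1.85 (SE 0.19) in TEADi (highest adjusted p 5.75e-11), but in none of them with the controls of both sets (adjusted p 0.0723 to 0.663). It had 2114 and 2169 counts in the controls and 35 to 143 in the knockdowns. ETV5, which is overlapped by DGKG on its own strand, was lower in all 4 too, from -0.61 in TAZi to -1.11 in TEADi, and its calls were likewise lost with both control sets (0.212 to 0.699). ETS2 rose in YAPi (1.02), TAZi (0.98) and TEADi (log2 fold change 1.78, SE 0.17, adjusted p 1.28e-24) on the scale of normalized counts. Its TPM was 18.5 and 18.1 in the controls, 11.1 and 15 in YAPi, 11 and 22.6 in TAZi and 20.6 and 32.7 in TEADi, so that YAPi lay below the controls, TAZi on both sides of them and TEADi above. In TEADi it kept its call with both control sets (2.24, adjusted p 0.000148). EHF was called higher in YAPi (log2 fold change 0.71, SE 0.15, adjusted p 3.52e-05) and YAPi_TAZi (log2 fold change 0.79, SE 0.10, adjusted p 1.64e-14), although its TPM was lower in every knockdown library (15.6 to 44.2) than in the controls. These EHF calls were lost without either control library (adjusted p up to 0.0946) and with both control sets (up to 0.234). The direction of EHF in set 1 therefore differs between the count and the TPM scale.

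ETS1 was called higher in YAPi (0.44) and TAZi (0.59) and lower in YAPi_TAZi (-0.54). Its TPM was lower in every YAPi and TAZi library (22.9 to 45.1) than in the controls (55.5 to 56.4), so the direction of those calls turns on the TPM scale, and with both control sets the YAPi_TAZi change was 0.0066. ETV1 was called lower in TAZi (-0.56) and higher in YAPi_TAZi (0.45), and ETV4 lower in TEADi (-1.20). In YAPi_TAZi the TPM of ETV1 (19.5 and 28.7) lay below the controls (36.3 and 29.9), which turns that direction, and with both control sets the change of ETV1 in TAZi turned to 0.26. Each of these ETS1, ETV1 and ETV4 calls was lost without either control library, as were those of ETS2 in YAPi and TAZi and of ETV5 in all 4 (adjusted p up to 0.439). Those of ETS1 and ETV5 in YAPi were also lost without YAPi replicate 2, that of ETV1 in TAZi without TAZi replicate 1, that of ETV5 in TAZi without TAZi replicate 2 and that of ETV1 in YAPi_TAZi without either of its libraries. ELF3 was called in none of the 4, with 2 to 9 counts in the knockdowns against 111 and 100 in the controls. Members called numbered 6 of 9 in YAPi (24.4% of all genes tested), 6 in TAZi (32.8%), 6 in YAPi_TAZi (35.6%) and 5 in TEADi (27.5%). TMM size factors moved the median of all genes by -0.10 to -0.14 in these fits and turned the direction of none of the called members.

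**Figure D5:**
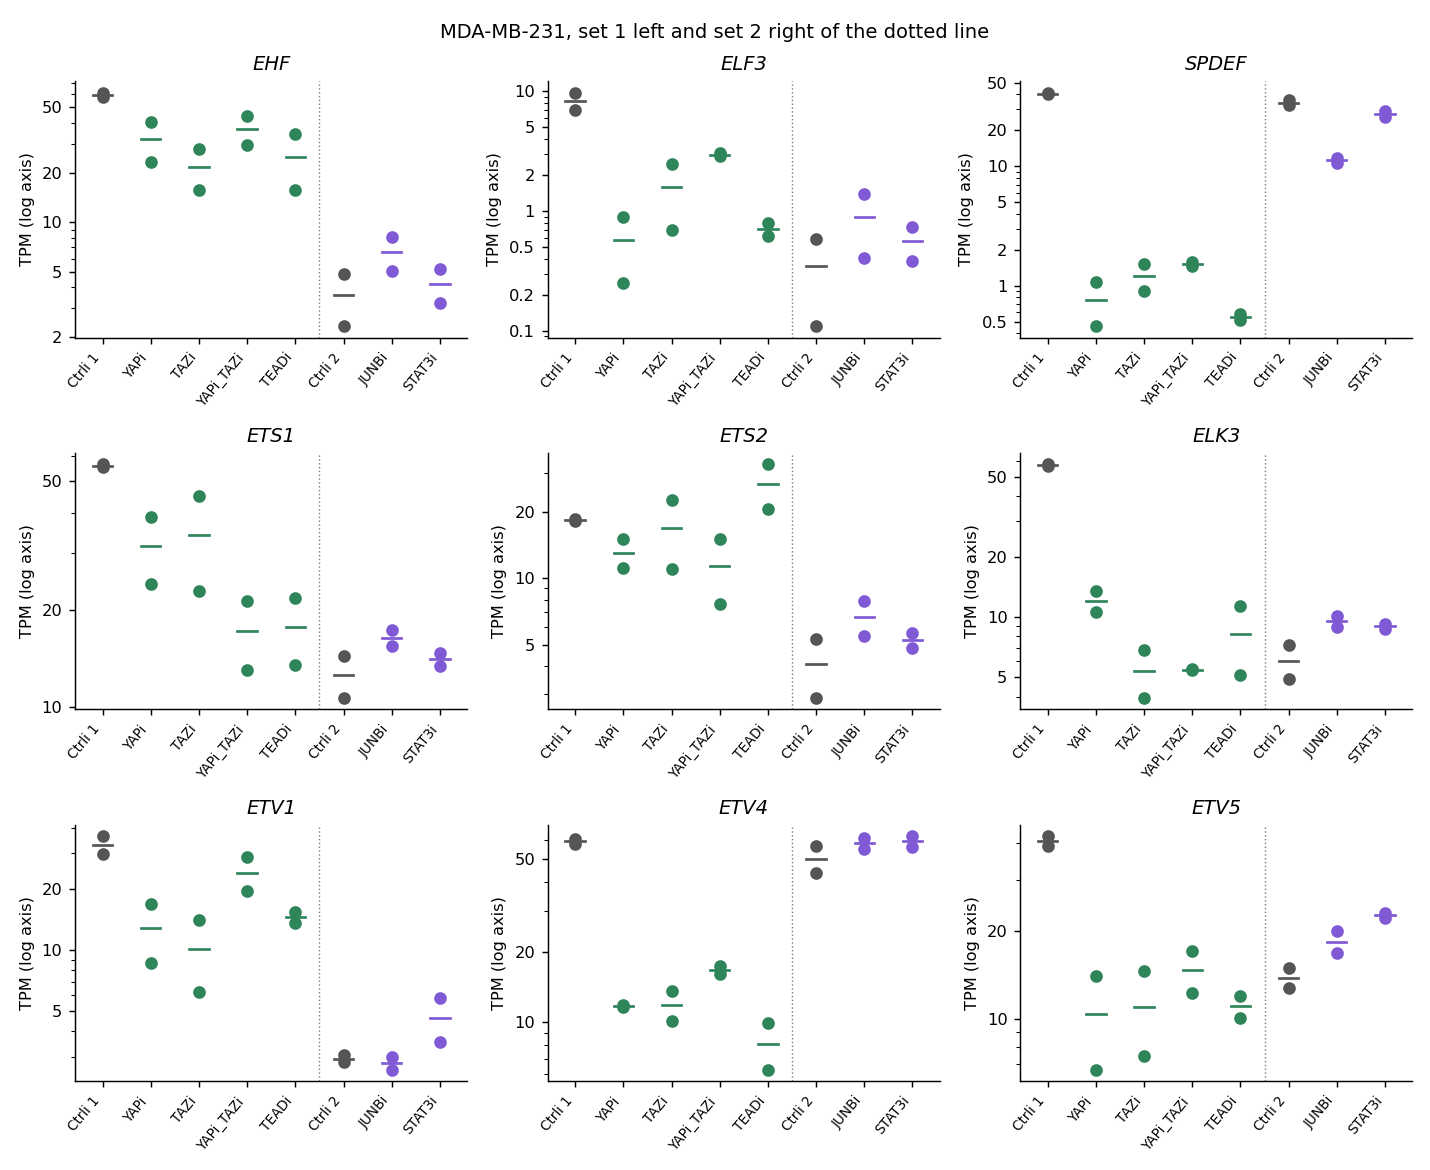
TPM (log axes) of 9 members in MDA-MB-231, each point a library and each bar a group mean of 2, with set 1 left and set 2 right of the dotted line and Ctrli in grey. SPDEF lies near 1 TPM in the set 1 knockdowns, about 11 TPM in JUNBi of set 2 and above 25 TPM elsewhere.

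Among the set 1 knockdowns, compared with the replicate number as a block since replicates 1 and 2 differ in length gap, 1 member passed. ETV1 was higher in YAPi_TAZi than in the other 3 (log2 fold change 0.81, SE 0.21, adjusted p 0.00892), with 19.5 and 28.7 TPM there against 6.24 to 16.9 in the others. That call was lost with edgeR (adjusted p 0.0857), with TMM scaling (0.0103), with offsets for effective length (0.106) and without any 1 of the 8 libraries but TEADi replicate 1 (up to 0.836). ETS2 was higher in TEADi, at 20.6 and 32.7 TPM, without passing (log2 fold change 0.98, SE 0.26, adjusted p 0.0108). Called members were 0 of 4 tested for YAPi (0.619% of all genes), 0 of 7 for TAZi (0.32%), 1 of 7 for YAPi_TAZi (1.13%) and 0 of 7 for TEADi (1.87%). In the 3 without a call, 1, 1 and 2 members had an unadjusted p under 0.05 with DESeq2, and edgeR called 0, 0 and 0.

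In set 2, where all libraries were of 1 kind, JUNBi lowered SPDEF. It stood at 32.3 and 36 TPM in Ctrli, 10.7 and 11.8 in JUNBi and 29.2 and 26 in STAT3i. The JUNBi libraries lay below all the others (log2 fold change -1.91, SE 0.27, adjusted p 1.25e-09). With edgeR the adjusted p was 0.0271, and without either JUNBi library DESeq2 gave none (log2 fold change -1.95 and -1.87). With the controls of both sets DESeq2 did not call SPDEF (log2 fold change -1.55, adjusted p 0.482). In STAT3i its change was -0.47 (SE 0.25, unadjusted p 0.063). No other member was called, at 1 of 6 tested in JUNBi (3.41% of all genes) and 0 of 1 tested in STAT3i (0.497%), where 10 of 2013 genes passed.

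Known targets and neighbours of the family were read in the same fits. Of 10 targets of the PEA3 and ETS1/ETS2 factors, TAM in Ctrli raised all 6 that had an adjusted p, among them PLAUR, the urokinase receptor (log2 fold change 2.34, SE 0.18, adjusted p 1.29e-36), VEGFA, the angiogenic growth factor (log2 fold change 2.02, SE 0.13, adjusted p 5.22e-51), and PLAU, urokinase (log2 fold change 1.60, SE 0.24, adjusted p 1.42e-09), with a list median of 2.18. Under TAM, STAT3i lowered 4 of 5, among them VEGFA (-1.83, SE 0.14) and PLAUR (-0.74, SE 0.16), and JUNBi 2 of 5, MMP14 (-0.90, SE 0.13) and VEGFA (-0.84, SE 0.13). In YAPi and TAZi 0 of 6 were called under TAM. Under ETH, YAPi raised 2 of 4, PLAU (1.41, SE 0.23) and PLAUR (1.00, SE 0.25).

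Of 10 targets of the ESE factors and SPDEF, YAPi under TAM raised all 4 that were tested, among them SERPINB5, a tumor suppressor serpin (log2 fold change 1.31, SE 0.15, adjusted p 1.03e-15), TGFBR2 (0.86, SE 0.12) and the tight junction gene CLDN7 (0.61, SE 0.14). In TAZi and JUNBi 0 of 3 were called, under TAM and under ETH, and in STAT3i under ETH 0 of 4. SERPINB5 also rose under TAM in STAT3i (0.97, SE 0.14) and under ETH in YAPi (1.04, SE 0.13), and it fell with TAM in Ctrli (-0.53, SE 0.12). In MDA-MB-231 set 1, CLDN7 fell in all 4 knockdowns, from -2.29 to -2.98, together with the secretory gene MUC5AC and with AGR2, under the same limit of library kind as SPDEF.

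Of 12 outputs of the ERK pathway, which induces the PEA3 genes, 6 of 12 tested fell under TAM in JUNBi, 5 in STAT3i, 4 in TAZi and 1 in YAPi, where CCND1 rose (1.29, SE 0.14). DUSP6, the ERK phosphatase, fell by 1.56 in JUNBi, 1.34 in STAT3i and 0.69 in TAZi on the log2 scale. Under ETH, JUNBi lowered 2 of 12, DUSP6 (-1.46, SE 0.27) and IER3 (-1.16, SE 0.31). Of the 18 other ETS genes, 11 or 12 were tested in each ER-Src fit except the interaction with TAZi. STAT3i lowered 3 under TAM, ETV6 (-1.03, SE 0.28), FLI1 (-0.96, SE 0.28) and ELK1 (-0.94, SE 0.25), and the other 3 TAM knockdowns and all ETH knockdowns called 0. TAM raised ETV6 (1.05, SE 0.28) and FLI1 (1.04, SE 0.30) in Ctrli. These list counts are to be read against the shares of all genes called, printed above beside the members called in each separate fit.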

How the data were processed

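Expected counts and TPM per gene were deposited by the authors for each of the 36 libraries, made from RSEM estimates on human transcripts of GENCODE version 30. The expected counts were rounded to whole numbers and the TPM values were used as deposited by the authors. The tables held 61471 identifiers, of which 746 that are not Ensembl genes were left out, and 0 columns belonged to no sample. Symbols came from GENCODE version 44. Each comparison was a separate DESeq2 1.42.0 fit in R 4.3.3 with default size factors and independent filtering over all genes, and edgeR 4.0.16 was an alternative. The fits were also run on simulated data as a check of the code. Those libraries were independent, with a spread set in advance, so that run does not bear on the calls here. The comparisons among the set 1 knockdowns had the replicate number as a block, since libraries of the same number shared a length gap and deviated together (r 0.792 to 0.825). With 2 libraries a group, no permutation test over libraries can pass a threshold of 0.05. Named genes were the 10 members, at most 3 called genes per list whose normalized count averaged 100 or more, the 5 genes most correlated with EHF on log2 of the normalized count plus 1, and the siRNA targets. AGR2, MUC5AC and CD68 were named after their values were seen. The members and lists were chosen with earlier results of these data known.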

Additional observations from a re-analysis of the deposited data

Results flagged for a closer look

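The interaction term of DESeq2, the log2 change with a knockdown under TAM minus that under ETH, passed the threshold for 2 results on ETS2 and 5 on the lists. For ETS2 it was -0.70 (SE 0.14, adjusted p 0.000149) with TAZi and -1.03 (SE 0.20, adjusted p 2.52e-05) with STAT3i. With YAPi it was -1.25 (SE 0.27, adjusted p 0.000842) for PLAU and -0.83 (SE 0.20, adjusted p 0.00778) for SPRED1, an inhibitor of ERK signaling. With STAT3i it was -1.80 (SE 0.24, adjusted p 7.20e-11) for VEGFA, -1.37 (SE 0.26, adjusted p 1.89e-05) for DUSP6 and -1.03 (SE 0.24, adjusted p 0.00226) for SPRED1. The cause of these differences was not tested.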

How the results depend on the processing

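Members called under other settings were as follows, and the share of all genes called is given for none of them. A change in these counts therefore cannot be told apart from a change in the calls over all genes. With the replicate block they numbered 2 in YAPi under ETH and 2 in YAPi under TAM, and without the replicate block 1 among the set 1 knockdowns for TEADi. The block ended, each time in the same direction, 12 of 60 calls of single members, those of ETV1 and ETV4 in YAPi under ETH (adjusted p 0.0407 and 0.0767) and TAM (0.0125 and 0.0826), ETV1 in TAZi under ETH and TAM (adjusted p 0.0958 and 0.103), ELK3 in the TAM response of Ctrli (0.0172) and, in set 1, ETS1 and ETV5 in YAPi (0.0486 and 0.0307), ETV1 and ETV5 in TAZi (0.098 and 0.0732) and ETV1 in YAPi_TAZi (0.0253). Outside the comparisons among the set 1 knockdowns, libraries of the same number deviated together less, at r from -0.211 to 0.608. For the TAM response r was 0.595 in STAT3i and 0.564 in JUNBi. Whether the numbers pair those libraries was not tested, and the main fits there had no block. In set 2 no paired analysis was possible because controls and knockdowns carry different numbers. With all ER-Src groups in the fit they numbered 7 in YAPi, 7 in TAZi and 1 in STAT3i under ETH, 4 in STAT3i under TAM, and 4, 4 and 5 for the TAM response in YAPi, TAZi and STAT3i. No share of all genes called in that larger fit is given beside these counts. With edgeR they numbered 0 for JUNBi under ETH, the TAM response in STAT3i and JUNBi, the interactions with TAZi and STAT3i, YAPi_TAZi among the set 1 knockdowns and JUNBi in set 2. With effective length offsets they numbered 2 for YAPi under TAM, 1 for the TAM response in STAT3i, and 0 for the interaction with TAZi and for YAPi_TAZi among the knockdowns, where TMM size factors also gave 0. With the controls of both sets they numbered 1, 1, 1 and 2 in YAPi, TAZi, YAPi_TAZi and TEADi of set 1 and 0 in JUNBi of set 2, and the signs of ETV1 in TAZi (0.26) and of ETS1 in YAPi_TAZi (0.0066) reversed. Leaving out 1 library gave under ETH YAPi 1 to 2, TAZi 0 to 1, STAT3i 0 to 0, JUNBi 1 to 4, and under TAM YAPi 0 to 2, TAZi 1 to 2, STAT3i 1 to 2, JUNBi 1 to 3. For the TAM response it gave Ctrli 2 to 2, YAPi 2 to 2, TAZi 2 to 2, STAT3i 0 to 1, JUNBi 2 to 2, and for the interactions YAPi 0 to 0, TAZi 0 to 1, STAT3i 1 to 1, JUNBi 0 to 1. For set 1 it gave YAPi 2 to 7, TAZi 2 to 6, YAPi_TAZi 2 to 5, TEADi 3 to 5, among its knockdowns YAPi 0 to 0, TAZi 0 to 0, YAPi_TAZi 0 to 1, TEADi 0 to 0, and for set 2 JUNBi 0 to 1, STAT3i 0 to 0. Of single called values, 110 of 260 lost the call and kept the direction with 1 library fewer. The cause of these changes was not tested.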
